A study of Homo sapiens with 6 samples.

Results

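The transcripts examined are those of inflammatory cytokines and chemokines and of other genes that the transcription factor NF-kappaB drives, compared between ABCB1-positive and ABCB1-negative cells of 1 melanoma line. The rule names 10 probes for 9 genes as members: IL8 (now CXCL8, 2 probes), CXCL1, CXCL2, IL6, CCL2, IL1B, TNFAIP3, NFKBIA and ICAM1. Of these, 8 probes for 8 genes, each with 1 probe, are among the 24526 probes of the deposited table, which the annotation gives 16922 genes in all, and for these 8 it names the same genes as the rule. The second IL8 probe (ILMN_1666733) and the NFKBIA probe (ILMN_1773154) were not analysed here. Of the 8, 3 were detected on enough arrays to be tested (CXCL8, TNFAIP3 and ICAM1), and 5 were not.

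All 6 samples are OCM1A cells, which the labels describe as of uveal melanoma origin, grown in serum-containing medium with no treatment named. Cells were stained with an MDR1 shift assay, in which an antibody reads the drug pump ABCB1 (P-glycoprotein, MDR1) at the cell surface, and the ABCB1-positive and ABCB1-negative cells were sorted on a flow cytometer into Trizol. Each fraction has 3 samples, hybridised as biotin-labelled cRNA to 1-colour Illumina bead arrays. The submitters give 3 independent shift assays as the origin of the 6 samples, and the labels do not state that samples of equal replicate number share an assay. Fractions were paired by that number because the rule asks for it. Both fractions come from the same line and, per the labels, differ in the sort, and all replicates share that line, so the p-values rest on how these samples varied and on nothing wider.

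NF-kappaB is a family of dimeric transcription factors held in the cytoplasm by inhibitor proteins such as NFKBIA. Signals from the receptors of IL-1 and TNF lead to the destruction of the inhibitor, and the freed dimers switch on chemokines, cytokines and adhesion molecules together with genes that end the response, among them NFKBIA and TNFAIP3. In melanoma, CXCL8 and CXCL1 are well known secreted products; CXCL1 was first described as a melanoma growth factor.

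NF-kappaB binds a short DNA element, and the RefSeq promoters show where its letters stand in these genes. The RefSeq set (GRCh38.p14; 250 bases before to 50 after the gene start, 5′ to 3′ on the gene's strand) matched 7 of the 8 members by symbol, all but CCL2. Capitals mark GGANNTTCC, a short form of the NF-kappaB element, searched on both strands and chosen, from several short forms looked at, with these promoters in view. The promoters of the 2 members that passed the test are given whole: CXCL8 at chr4:73740319-73740618 on the plus strand and TNFAIP3 at chr6:137867009-137867308 on the plus strand.
CXCL8: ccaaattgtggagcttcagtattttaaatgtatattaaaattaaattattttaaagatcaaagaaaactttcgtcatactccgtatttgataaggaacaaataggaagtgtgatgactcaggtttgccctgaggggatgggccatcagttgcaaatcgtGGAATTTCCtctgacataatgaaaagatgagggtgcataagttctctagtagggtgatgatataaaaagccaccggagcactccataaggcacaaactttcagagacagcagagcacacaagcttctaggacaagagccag
TNFAIP3: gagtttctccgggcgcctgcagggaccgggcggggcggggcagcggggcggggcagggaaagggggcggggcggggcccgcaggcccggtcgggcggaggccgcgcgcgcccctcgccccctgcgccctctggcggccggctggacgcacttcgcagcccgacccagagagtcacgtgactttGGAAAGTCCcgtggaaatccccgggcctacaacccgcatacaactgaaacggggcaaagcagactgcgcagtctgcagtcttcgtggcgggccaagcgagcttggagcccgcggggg

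The same letters stand in the promoters of 4 members that were dim or below detection, shown as windows of 39 bases for comparison: CXCL1 at chr4:73869300-73869338 (plus strand), CXCL2 at chr4:74099249-74099287 (minus strand), IL6 at chr7:22727113-22727151 (plus strand) and ICAM1 at chr19:10270919-10270957 (plus strand).
CXCL1: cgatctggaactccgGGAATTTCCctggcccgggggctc
CXCL2: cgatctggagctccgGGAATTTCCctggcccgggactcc
IL6: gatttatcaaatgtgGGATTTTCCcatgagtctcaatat
ICAM1: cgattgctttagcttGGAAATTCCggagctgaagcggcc

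The match begins 91 bases before the start in CXCL8, 78 in CXCL1, 77 in CXCL2, 72 in IL6, 67 in TNFAIP3 (in the opposite orientation) and 186 in ICAM1. It was found in 6 of the 7 members, and IL1B held none in this window. Of all 35116 promoters of the set, 4.56% hold it. The single form GGAATTTCC, which is contained in the first, stands in 4 of the 7 (CXCL8, CXCL1, CXCL2 and, in the opposite orientation, ICAM1) and in 0.461% of all promoters. These are matches of letters and not measured sites: members with the match were found at every outcome below, higher, lower, not called and not detected.

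The arrays detected 12846 to 13183 of the 24526 probes at a detection p under 0.05. ABCB1, on which the cells were sorted, had signals of 78.4, 72.0 and 99.0 in ABCB1-negative and 408, 514 and 188 in ABCB1-positive replicates 1 to 3, a rise of 1.57 ± 0.20 on the log2 scale (SE; limma adjusted p = 0.00204), so each array went with its label. Melanocyte genes were bright on every array (PMEL, MLANA, TYR, TYRP1, SOX10 and MITF), and of the 7 tested probes of that list 0 were called by limma and 0 had an unadjusted p under 0.05, with or without the pairing by replicate number. The other 2 probes of the list, those of S100B and 1 of MITF, were detected on no array. Of 7 leukocyte probes 5 were detected on no array, among them all 3 of PTPRC, the common leukocyte antigen, and the list's summed signal ran from 100.5 to 251.5 in negative and from 119.7 to 181.9 in positive arrays. The exceptions were 1 of the probes of CD14, detected on all 6 arrays with signals of 75.2 to 195.1 (log2 difference 0.03, limma adjusted p = 0.88), and LYZ, detected on 2 negative arrays. Of 3 endothelial probes, that of PECAM1 was detected on all 6 arrays with signals of 24.9 to 63.4 (log2 difference 0.21, limma adjusted p = 0.256), and those of CDH5 and VWF on no array. All 4 fibroblast probes were detected on no array. The part of other cells in the results was not tested.

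CXCL8 (IL-8) was the tested member that differed most between the fractions: it was lower in ABCB1-positive cells in all 3 pairs. CXCL8 is a chemokine that draws neutrophils through the receptors CXCR1 and CXCR2. The signal of its probe ILMN_2184373 was 999, 193 and 2289 in ABCB1-negative replicates 1 to 3 and 145, 82.5 and 319 in ABCB1-positive replicates 1 to 3. It was detected on all 6 arrays. Negative replicate 2, at 193, lay below positive replicate 3, at 319, so the groups overlapped, but within each replicate number the positive array was the lower one, as it was under all 7 other scalings and background settings tried.

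After normalisation the CXCL8 level was 10.11, 8.17 and 10.79 on the log2 scale in ABCB1-negative and 7.69, 7.44 and 8.79 in ABCB1-positive cells. The positive array was 5.36-fold lower in pair 1, 1.66-fold in pair 2 and 4.01-fold in pair 3. Paired by replicate number, the log2 difference was -1.72 ± 0.28 (SE, n = 3 pairs; 95% interval -2.36 to -1.08), or 3.29-fold lower, with a limma adjusted p of 0.00528. In the fit without the pairing, the same difference had a limma adjusted p of 0.175, so the call rests on comparing fractions within a number. A lower share of CXCL8-expressing cells and less CXCL8 RNA per cell cannot be told apart in such bulk samples.

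Among all 13186 tested probes 26 had a lower log2 difference than CXCL8. In the fit paired by number 2682 probes were called at an adjusted p under 0.05, or 20.3% of those tested. Of the tested probes 11.1% were called higher and 9.20% lower in ABCB1-positive cells. Without the pairing 5.15% were called. Of the 3 tested members 1 was called higher and 1 lower with the pairing, and 0 without it. In that limma fit CXCL8 alone had an unadjusted p under 0.05. With so many probes called, a call by itself sets no member apart.

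**Figure D1:**
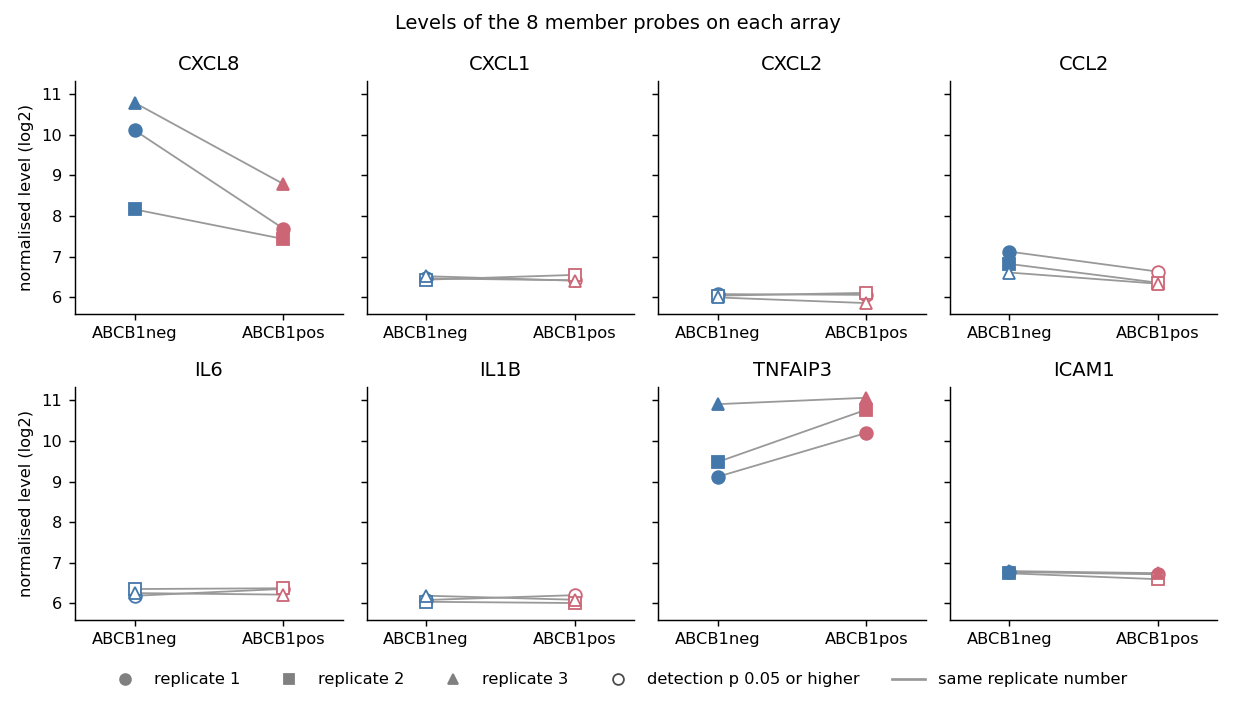
Normalised level (log2 scale) of each of the 8 member probes on the 6 arrays, ABCB1-negative in blue and ABCB1-positive in red, with marker shape for the replicate number, grey lines joining arrays of the same number, and open markers where the detection p was 0.05 or higher. CXCL8 falls along all 3 lines, TNFAIP3 rises along the lines of pairs 1 and 2 and is nearly flat in pair 3 (log2 difference 0.16, and -0.16 with median scaling), CCL2 lies low with 2 detected values, and the other members lie near the background of the arrays.

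The remaining secreted members were at or near the background of the arrays. CXCL1 and CXCL2, chemokines of the same family that also act on CXCR2, were detected on 0 of 6 arrays. The CXCL1 probe ILMN_1787897 ran from 10.8 to 24.3 in signal and the CXCL2 probe ILMN_1682636 from -14.2 to -3.75, where the lowest signal counted as detected was between 23.4 and 35.0 depending on the array. IL6, a cytokine that signals through IL6ST, and IL1B, a cytokine that itself activates NF-kappaB, were likewise detected on 0 arrays. The signal of ILMN_1699651 (IL6) ran from -0.069 to 9.34 and that of ILMN_1775501 (IL1B) from -7.58 to 0.13. A difference in these 4 transcripts was not detectable with these signals, which does not show that they are absent.

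CCL2, a chemokine that attracts monocytes, gave a weak signal that was above background in ABCB1-negative cells alone. The signal of ILMN_1720048 was 66.4, 36.5 and 32.4 in ABCB1-negative and 27.8, 7.07 and 7.02 in ABCB1-positive cells, so every negative signal lay above every positive one. After normalisation the groups overlapped, since positive replicate 1 (6.63) lay above negative replicate 3 (6.61). It was detected on 2 of 3 negative and 0 of 3 positive arrays and did not enter the main test. The mean normalised level of CCL2 was 6.85 in negative and 6.44 in positive arrays. The negative mean was 1.15-fold above the detection floor of the positive arrays (6.65). It includes negative replicate 3 (6.61), which was not detected, so 1.15-fold is not a firm lower bound. That value has no test. None of the 3 negative arrays detected CCL2 at a detection p under 0.01.

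TNFAIP3 moved the other way and was higher in ABCB1-positive cells. TNFAIP3 (A20) is a ubiquitin-editing enzyme that is induced by NF-kappaB and shuts the pathway down. The signal of ILMN_1702691 was 469, 565 and 2490 in negative replicates 1 to 3 and 1267, 1450 and 1809 in positive replicates 1 to 3. Negative replicate 3 had the highest signal of the 6 and the groups overlapped. The normalised level of TNFAIP3 was higher in the positive array 2.12-fold in pair 1, 2.45-fold in pair 2 and 1.12-fold in pair 3. The direction in pair 3 turned with the scaling: the signal as deposited was lower in the positive array, and the log2 difference of pair 3 was -0.16 with median scaling and -0.05 with the deposited scaled values, against 0.15 to 0.21 in the other 5 settings.

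For TNFAIP3 the paired log2 difference was 0.84 ± 0.20 (SE, n = 3 pairs; 95% interval 0.37 to 1.31), or 1.79-fold, with a limma adjusted p of 0.025. The call was less firm than that of CXCL8. The limma adjusted p was 0.319 without the pairing, and 0.0569 when the arrays numbered 2 were left out. It was 0.0969 with median scaling, 0.0862 with the deposited scaled values and 0.0633 with no background correction, over a range of 0.000642 to 0.319 in all alternatives. The direction of the mean over pairs was the same in all 14 of them, with log2 differences from 0.62 to 1.19. In limma, 97.5% of all tested probes had a lower log2 difference than TNFAIP3.

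ICAM1, an adhesion molecule that binds leukocyte integrins, was close to the background in both fractions. ILMN_1812226 gave signals of 36.3, 30.9 and 51.5 in ABCB1-negative and 34.3, 19.2 and 30.4 in ABCB1-positive cells, detected on 3 and 2 arrays. The log2 difference was -0.09 ± 0.11 (SE, n = 3 pairs; 95% interval -0.33 to 0.16; limma adjusted p = 0.612). The offset added before the log compresses differences at such signals. With no background correction or offset, but still quantile normalised, the ICAM1 difference was -0.29 (limma adjusted p = 0.247). With the deposited scaled values, which had neither an offset nor quantile normalisation, it was -0.46 (limma adjusted p = 0.109).

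**Figure D2:**
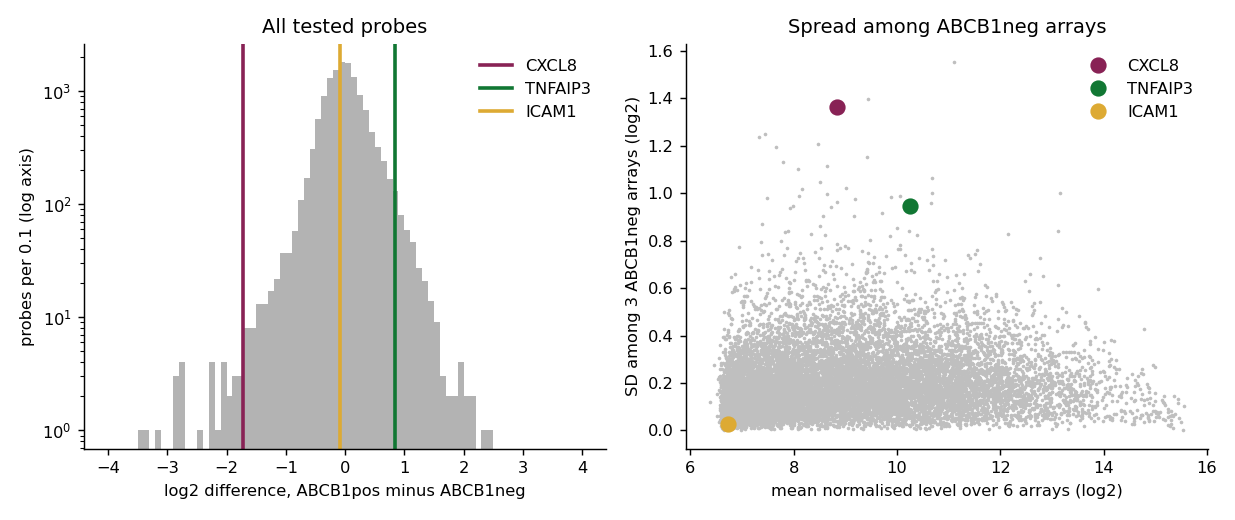
Left, number of tested probes per 0.1 of the log2 difference, ABCB1-positive minus ABCB1-negative (log axis), with vertical lines at CXCL8 (-1.72), ICAM1 (-0.09) and TNFAIP3 (0.84). Right, mean normalised level over the 6 arrays against the SD among the 3 ABCB1-negative arrays, both log2, one grey point per tested probe: CXCL8 (SD 1.36) and TNFAIP3 (SD 0.95) lie at the upper edge and ICAM1 (SD 0.03) at the lower.

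CXCL8 and TNFAIP3 also varied among arrays of the same fraction, in ABCB1-negative cells more than nearly all other probes. Among the 3 ABCB1-negative arrays the SD of CXCL8 was 1.36 on the log2 scale, and 2 of the 13186 tested probes had a larger one. Its highest negative array was 6.18-fold above its lowest. For TNFAIP3 the SD was 0.95, with 26 probes above it, and a span of 3.46-fold. Among the positive arrays the SD was 0.72 for CXCL8, larger than in 98.89% of tested probes, and 0.44 for TNFAIP3, larger than in 88.47%.

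By normalised level the arrays numbered 3 were the highest of both fractions for CXCL8 and TNFAIP3, under all 7 other settings too. For ICAM1 they were as well, and in 6 of the 7 other settings, but by signal positive replicate 1 (34.3) lay above positive replicate 3 (30.4). The lowest CXCL8 arrays were those numbered 2 in both fractions, while the lowest TNFAIP3 arrays were those numbered 1. Of the variation of CXCL8 over the 6 arrays 48.2% went with the fraction, 43.4% with the replicate number and 8.44% with neither. For TNFAIP3 the shares were 32.9%, 55.9% and 11.2%, so the number took more than the fraction. What differed between the numbers was not tested.

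Of the wider NF-kappaB pathway, taken as 3 lists of genes beside the members, 64 probes for 48 genes are on the array, and 38 probes were tested. In limma paired by number 5 were called higher and 6 lower in ABCB1-positive cells, together 28.9% against 20.3% of all tested probes. The median log2 difference was -0.03 over the 38 and -0.02 over all tested probes. Without the pairing 4 of the 38 were called (10.5% against 5.15% of all). Without the arrays numbered 1 just 3 were called (7.89%), a share below that of all tested probes in the same fit, whose counts are given further down. The calls went both ways. Those that held without the pairing were of NFKB1, IL1RAP (ILMN_2357062) and both tested SOD2 probes, and those that held without the arrays numbered 1 were of RELB, IL1RAP (ILMN_2357062) and SOD2 (ILMN_2336781).

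Of the subunits and inhibitors, 16 probes for 13 genes were tested, with 3 called higher, 2 lower and 11 not called. Over all tested probes 20.3% were called, the share beside which the counts of each list stand. NFKB1, whose product p105 is both a cytoplasmic inhibitor and the precursor of the p50 subunit, was lower. Its signal was 5591, 5151 and 8206 in negative and 4396, 3767 and 3826 in positive arrays, and the log2 levels differed by -0.57 ± 0.11 (SE, limma adjusted p = 0.01). The signals of the 2 groups did not overlap for NFKB1. Its call held in 11 of 14 alternatives and was lost with median scaling, with the deposited scaled values and without the arrays numbered 1 (limma adjusted p = 0.0541 to 0.0688). CYLD, a deubiquitinase that restrains the pathway, fell from 220, 148 and 198 to 113, 80.3 and 63.6 in signal, and the log2 levels differed by -0.59 ± 0.11 (SE, limma adjusted p = 0.0101). The CYLD call held in 12 of 14, all but those without the pairing and without the arrays numbered 1.

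RELB, a subunit of the alternative pathway, was called higher, by 0.48 ± 0.14 (SE, limma adjusted p = 0.045). Its signals were 40.7, 25.5 and 110 in negative and 57.2, 57.7 and 161 in positive arrays, again with the arrays numbered 3 the highest. Its call held in 6 of 14 alternatives. It was lost without the pairing, with 3 of the other scalings, with no filter, with the deposited scaled values and when the arrays numbered 2 or 3 were left out (limma adjusted p = 0.051 to 0.372). NFKB2 was not called by ILMN_1799062 (0.41 ± 0.18, SE, limma adjusted p = 0.145) or ILMN_2390859 (0.47 ± 0.15, SE, limma adjusted p = 0.0674). The latter was called in 4 of 14 alternatives. TNIP2, a partner of TNFAIP3, differed by 0.39 ± 0.11 (SE, limma adjusted p = 0.0413), and this call, which held in 6 of 14 alternatives, was lost on leaving out any number (limma adjusted p = 0.0782 to 0.181). NFKBIB, an inhibitor related to NFKBIA, was called higher by ILMN_1690473 (0.54 ± 0.12, SE, limma adjusted p = 0.0157) and not by ILMN_1674152 (0.27 ± 0.15, SE, limma adjusted p = 0.228), and the call held in 10 of 14 alternatives. RELA, the most studied activating subunit, differed by 0.06 ± 0.12 (SE, limma adjusted p = 0.77).

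Of 25 probes for other cytokines and targets, 10 probes for 8 genes were tested; 14 of the others were detected on no array, among them those of TNF, IL1A, LIF, VCAM1, CXCL3, CXCL5 and CXCL6. SOD2, the mitochondrial superoxide dismutase and a classical NF-kappaB target, was higher in ABCB1-positive cells by both of its tested probes. The signal of ILMN_2336781 was 1097, 907 and 1679 in negative and 2433, 1579 and 1924 in positive arrays. Its 3 pairs differed by 0.86, 0.77 and 0.80 on the log2 scale, with a mean of 0.81 ± 0.11 (SE, limma adjusted p = 0.00243; 0.017 without the pairing). The second probe gave 0.66 ± 0.11 (SE, limma adjusted p = 0.00671). The call of the first held in all 14 alternatives and that of the second in 12, lost with median scaling and without the arrays numbered 1. The remaining SOD2 probe, detected on 1 array, was not tested.

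BIRC2, the ubiquitin ligase cIAP1 of the TNF receptor complex, was lower. Its signals were 1854, 1630 and 2621 in negative and 944, 1243 and 911 in positive arrays, and the log2 levels differed by -0.77 ± 0.16 (SE, limma adjusted p = 0.0128). TNFAIP8, a TNF-induced regulator of cell death, was lower as well (-0.54 ± 0.11, SE, limma adjusted p = 0.0135). Both calls held in 12 of 14 alternatives and were lost without the pairing and without the arrays numbered 1. CCL20, which among the chemokines of the members and lists was, with CXCL8, detected on all 6 arrays, had signals of 126, 61.8 and 236 in negative and 80.0, 49.7 and 96.4 in positive arrays. It was lower in the positive array of each pair, with a log2 difference of -0.31 ± 0.12 (SE) that was not called (limma adjusted p = 0.107). PTGS2, the inducible cyclooxygenase, had 0.28 ± 0.16 (SE, limma adjusted p = 0.242).

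Of the receptors and adaptors, 12 probes for 9 genes were tested, with 2 called lower, both of IL1RAP, and 0 higher. On the higher side TNFRSF1B alone had an unadjusted limma p under 0.05 (adjusted p = 0.0792). IL1RAP is the co-receptor that the IL-1 receptor needs to signal. The signal of ILMN_2357062 was 1334, 931 and 1481 in negative and 548, 550 and 283 in positive arrays, with no overlap. The paired difference came to -1.18 ± 0.17 (log2, SE, limma adjusted p = 0.0032; 0.0256 without the pairing), and the call held in all 14 alternatives. The second probe, ILMN_1686884, gave -0.61 ± 0.16 (SE, limma adjusted p = 0.0335). That call held in 8 of 14 alternatives, and was lost without the pairing, with median scaling, with no background correction, with no filter and without the arrays numbered 1 or 3 (limma adjusted p = 0.0533 to 0.169). IL1R1 lay near the background, and TNFRSF1A, the main TNF receptor, had -0.42 ± 0.14 (SE, limma adjusted p = 0.0713). CXCR1, a CXCL8 receptor, was detected on no array. CXCR2, the other one, was dim, with signals of 20.3 to 78.7, and was detected on 1 negative and 2 positive arrays. It differed by 0.16 ± 0.12 (SE, limma adjusted p = 0.392).

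**Figure D3:**
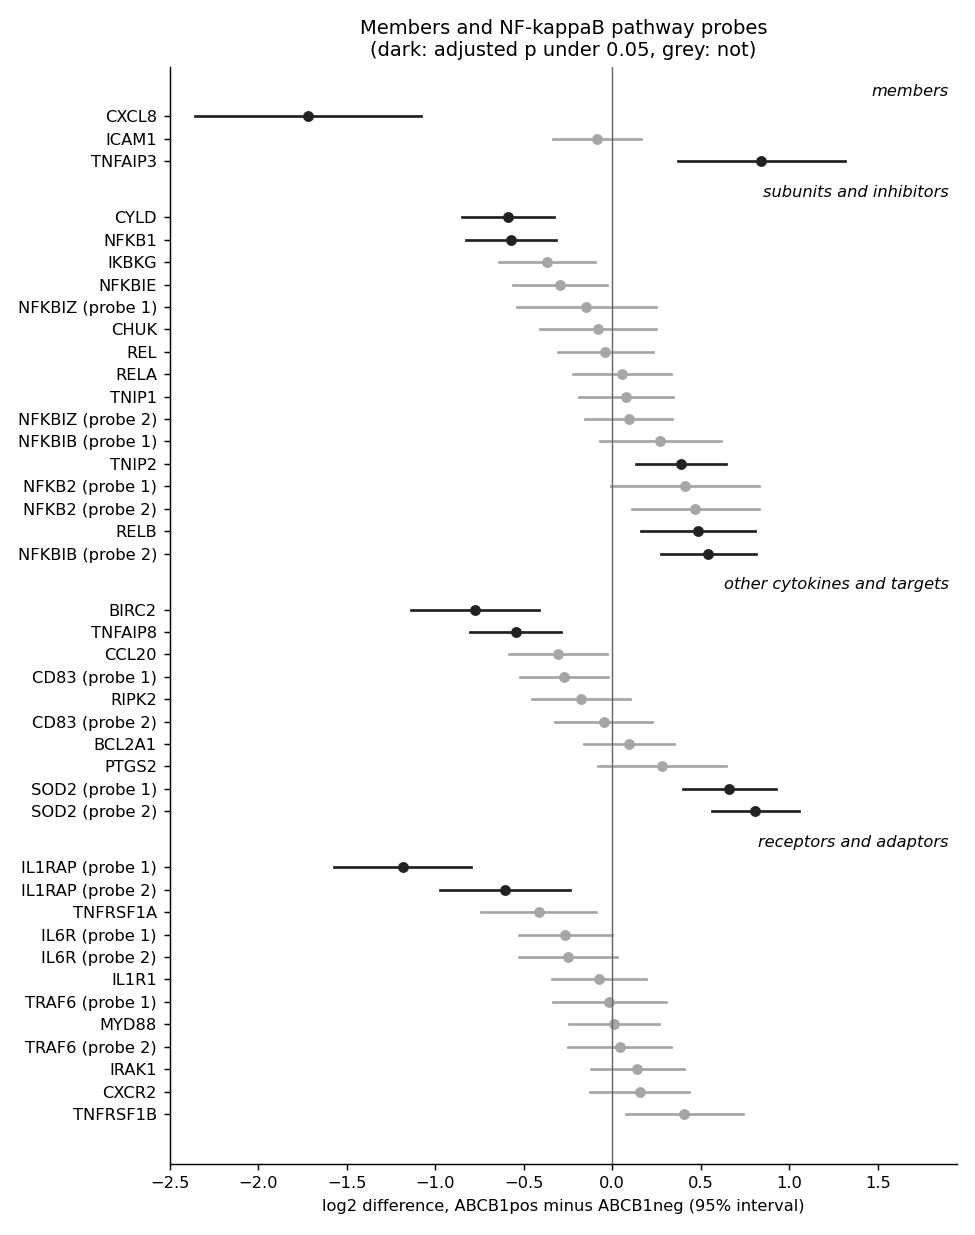
Log2 difference, ABCB1-positive minus ABCB1-negative, with its 95% interval from the paired limma fit for the 3 tested members and the 38 tested probes of the NF-kappaB lists, dark where the adjusted p was under 0.05. CXCL8 (-1.72), IL1RAP (-1.18) and BIRC2 (-0.77) lie on the lower side and TNFAIP3 (0.84) and SOD2 (0.81) on the higher side. The remaining probes, some of them dark, lie between BIRC2 and SOD2.

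The tested probes outside the members whose levels over the 6 arrays were most like those of CXCL8 were ILMN_1656940 of ABLIM3, an actin-binding LIM protein (Pearson r = 0.9936), ILMN_1797596, which has no gene in the annotation used (0.9914), and ILMN_1746588 of TALDO1, the transaldolase of the pentose phosphate pathway (0.99). They were picked as the highest of all tested probes, and the 6 arrays share fraction and number, so the values describe likeness alone. Their own log2 differences were smaller. ILMN_1797596 was called lower, at -0.48 ± 0.13 (SE, limma adjusted p = 0.0398; 0.225 without the pairing). ABLIM3, at -0.41 ± 0.14, and TALDO1, at -0.21 ± 0.11, were not called (SE, limma adjusted p = 0.0702 and 0.203).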

How the data were processed

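The members, the gene lists and the tests were chosen with earlier results of these data known. Per the file headers, the deposited table gives for each of 6 arrays an intensity for every probe, and beside it a detection p-value. The deposited intensity values are linear and partly negative, as after subtraction of a background; the software is not given in the sources used here. A second deposited table holds the same intensity values times 1 constant per array, as its ratio to the first showed.

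Genes were named through the platform annotation (21834 of 24526 probes with 1 symbol each, 2692 with none, 0 with several) updated by gene ID. Signals were corrected with normexp (offset 50), quantile normalised and log2 transformed (limma 3.58.1, R 4.3.3). Probes with a detection p under 0.05 on at least 3 of 6 arrays were tested (13186) with lmFit and eBayes, two-sided, with the replicate number as a block and Benjamini-Hochberg adjustment over all of them. Calls have an adjusted p under 0.05, and differences are positive minus negative. The offset compresses dim differences. Named are all members, ABCB1, the called list genes and the 3 probes most like CXCL8; likeness to CXCL8 used its 1 probe in the table, where the rule foresaw the mean of both. All other genes named (list genes not called or not detected, and cell type markers) were picked after their values were seen.

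The rule pairs fractions by replicate number, which the labels do not tie to a shared assay; deviations from the group means of same-numbered arrays correlated across probes at 0.48, 0.64 and 0.48. The number of arrays limits precision. Slides and scan dates were not analysed here.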

Additional observations from a re-analysis of the deposited data

How the results depend on the processing

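Of 14 alternative fits, CXCL8 was called in 13 and TNFAIP3 in 9, ICAM1 in 0 of 13, and none of the 3 changed direction. Without the replicate block the log2 differences were the same (-1.72 for CXCL8 and 0.84 for TNFAIP3) but 0 members were called higher and 0 lower. The TNFAIP3 call was also lost with no background correction (0.91), median scaling (0.80) and the deposited series values (0.83), which left 0 members called higher; leaving out a number gave 0.62 to 1.19, -2.21 to -1.37 for CXCL8, and 0 to 1 members called higher. Over all probes 1469 were called higher and 1213 lower with the block. Without it these were 462 and 217, with median scaling 763 and 585, with the deposited series values 841 higher, and with no background correction 789 lower. Leaving out a number gave 856 to 1435 higher and 477 to 1297 lower, the lowest without the arrays numbered 1. The fits that leave out a number use fewer samples. The cause of the shifts in these counts was not tested. At a detection p under 0.01, CCL2 was detected on 0 negative arrays and ICAM1 on 0 negative and 0 positive arrays. Of the 38 list probes, 3 to 13 were called over the alternatives, against 11, and 0 called differences turned direction. The fewest, 3 (7.89%), were called without the arrays numbered 1, beside 856 higher and 477 lower of all 13186 tested probes. With median scaling 5 of the 38 were called (13.2%), beside 763 higher and 585 lower of all. Without the block 4 of the 38 were called (10.5%), beside 462 higher and 217 lower of all. The counts of the lists were not tested against those of all probes. In a fit paired by number, leaving out 1 array equals leaving out its pair.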

Other observations

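Of the 38 tested probes of the pathway lists, 12 (31.6%) had their highest normalised level in replicate 3 in both fractions, against 17.9% of all 13186 tested probes. In ABCB1-negative cells alone it was 20 (52.6%), against 33.8% of all, and in ABCB1-positive cells 18 (47.4%), against 36.1%. Other list probes were lowest in positive replicate 3, among them CHUK, a kinase that phosphorylates the inhibitors, with signals of 1120, 1190 and 529 in positive replicates 1 to 3 (ILMN_1677041). These are counts without a test, and the probes of a list are not independent.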
